A study of Rattus norvegicus with 14 samples.

Results

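The guidance genes described here are the 60 rows of the deposited rat aorta table, out of 17019, whose names begin as those of the semaphorins, plexins, neuropilins 1 and 2, netrins, UNC5 proteins, slits 1 to 3, robos 1 to 3, ephrins and Eph receptors. The rule reads the gene name and no measured value, but it was chosen with earlier results of these data known. Unc50 and Unc5cl match the UNC5 pattern by name but have no known guidance role, and they are listed apart. RNA was sequenced from the aortas of 14 male Dark Agouti rats, 1 library per rat. The 5 uremic rats (9, 17, 20, 27 and 28) had 5/6 nephrectomy, which removes most kidney tissue and leaves the animal with chronic kidney failure, and lived with uremia for 14 weeks. After 8 weeks they were started on alfacalcidol, which becomes active vitamin D in the liver; doses of 30 ng were given 3 times weekly over the remaining 6 weeks. The 4 control rats on vitamin D (36, 37, 38 and 39) had intact kidneys, and the labels give neither their dose nor its duration. The 5 control rats (41, 42, 43, 44 and 46) were left untreated for 14 weeks. The labels give no age, and they do not say which rats ate the phosphate-rich diet that the study names. Uremia, vitamin D and diet therefore cannot be told apart in the comparison with untreated control rats. Against control rats on vitamin D, uremia cannot be told apart from diet or from vitamin D dose and duration.

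These families were first known for steering growing axons. Semaphorins act through plexins, often with a neuropilin as coreceptor; slits act through robos; netrins act through DCC and UNC5 receptors; ephrins on one cell bind Eph receptors on the next and signal both ways. In arteries the same proteins take part in vessel patterning, in the assembly and motility of smooth muscle and endothelial cells, in nerve supply and in the movement of leukocytes.

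Levels are FPKM, a read count corrected for the length of the transcript and the size of the library. Reads recovered from the steps between FPKM values summed to between 1383335 (rat 37) and 4686783 (rat 27) per library, with a median of 55 per gene and library, and 49 of the 60 members could be read back as whole reads. Of the members, 39 reached at least 1 FPKM in at least 4 libraries of a comparison and were tested in at least 1 comparison, 21 were tested in none, and Ntn5 and Unc5d were listed at 0 in all 14 libraries. The dissected tissue carried the markers of aortic smooth muscle: the summed FPKM of 10 contractile genes ran from 10040 to 21120 in uremic rats, 16570 to 29420 in control rats on vitamin D and 22550 to 31430 in control rats. In uremic against control aortas 7 of these 10 fell, 10 of 12 tested macrophage markers rose (summed FPKM 527 to 744 in uremic, 80.0 to 164 in control with vitamin D and 70.4 to 187 in control rats) and 7 of 7 tested proliferation genes rose. Of the endothelial markers 1 of 14 tested fell (Cldn5), and Robo4 was listed at 0 in all libraries. Of 7 tested Schwann cell markers 2 fell, as did 2 of 7 tested fibroblast markers. Over all tested genes 11.4% were higher and 10.5% lower, so these few endothelial, Schwann cell and fibroblast calls are not read as a change of those cells. Fat and blood markers were present too. White adipocyte markers summed to 1581 to 7328, 2680 to 7309 and 2157 to 5329 FPKM in uremic, control with vitamin D and control rats. In that order brown adipocyte markers gave 125 to 600, 416 to 1678 and 326.7 to 823.5 FPKM. Erythrocyte markers gave 1222 to 15060, 347 to 1602 and 173 to 8685 FPKM. Against control with vitamin D, 4 of 6 tested brown adipocyte markers fell (6.03% of all tested genes fell). In a whole vessel, fewer cells of a type and less RNA per cell cannot be told apart, and the part of these cell types in the values below was not tested.

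In uremic against control aortas, all 7 semaphorins called by limma were lower, led by Sema5a, Sema3c and Sema3b. The ligand Slit3 and the receptors Robo2, Plxna2, Epha2, Unc5b, Plxnb2 and Nrp2 were called higher. Of the 37 guidance genes tested, 16 were called by limma at an adjusted p under 0.05 (43.2%), against 21.9% of the 9957 genes tested. Of these, 7 rose and 9 fell, where 11.4% of all tested genes were higher and 10.5% lower. The 5 uremic and 5 control rats did not overlap in 11 of the 37 (29.7%), against 15.7% of all tested genes. The median size of change, whatever its direction, was 0.48 on the log2 scale over the members and 0.25 over all genes, and the median signed change was 0.06 and 0.00. Without uremic rat 27, the deepest library, again 7 rose and 9 fell. Robo2, counted among the 7 that rose and the 11 without overlap, reached 1 FPKM only in uremic libraries.

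Against control rats on vitamin D, where both groups had received a form of vitamin D, 7 of 36 tested members were called in uremic rats (19.4%), against 13.2% of the 9916 genes tested. Robo2, Efna1, Plxna2 and Plxnb2 rose (7.19% of all genes rose), and Sema5a, Sema3c and Sema3b fell (6.03% of all genes fell). Robo2, counted among these 7, again reached 1 FPKM only in uremic libraries. When all libraries were brought to an equal total, 2 rose and 7 fell; that scaling moved the median change of all genes to -0.121. The groups did not overlap in 4 of 36 (11.1%), Robo2 among them, against 12.7% of all genes. The count was 3 without control rat 36 or 38 on vitamin D, 4 without uremic rat 28, and 10 without control rat 37 on vitamin D; over all genes leaving out 1 rat gave 659 (control rat 36 on vitamin D) to 1662 calls (uremic rat 27), against 1311. In control rats on vitamin D against control rats limma called 0 of 37 members, against 0.134% of the 9693 genes tested; 10 members (27.0%) and 18.4% of all tested genes had an unadjusted p under 0.05, limma voom on recovered reads also called 0, and array weights called 1. Over all genes 13 were called here, 393 without control rat 39 on vitamin D, 385 without control rat 46, and 0 to 4 without any 1 of the other 7 rats. The groups did not overlap in 5 of 37 (13.5%), against 5.72% of all genes. The 3 comparisons share groups of rats, so their values for a gene are not independent.

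**Figure D1:**
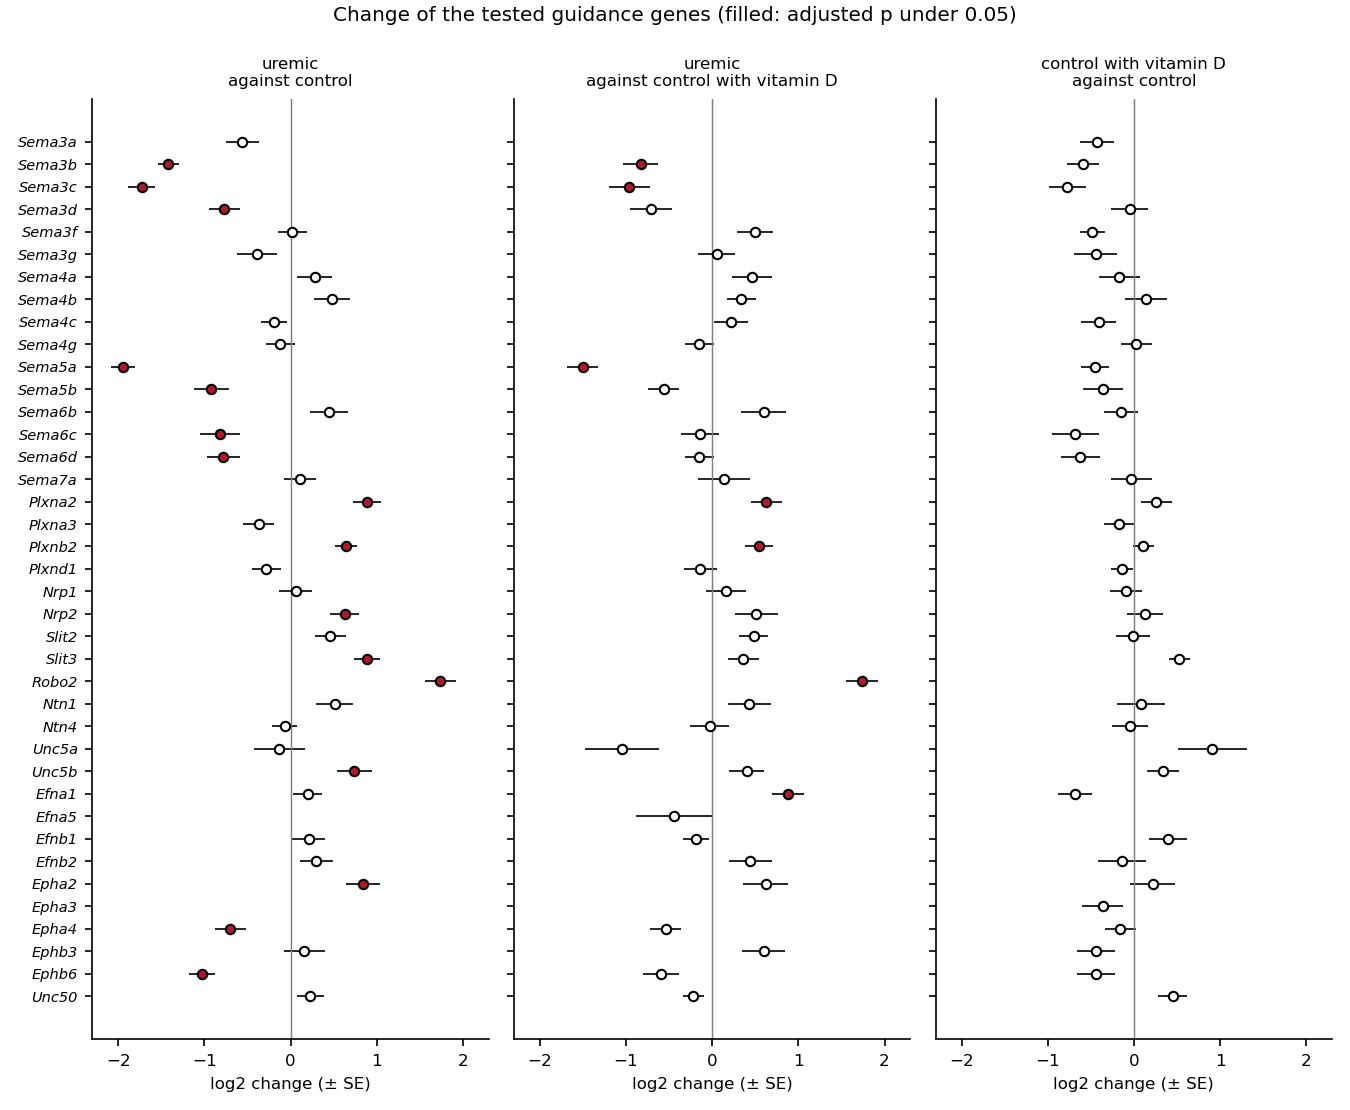
Change of every tested guidance gene on the log2(FPKM + 1) scale with its SE, ordered by family from semaphorins at the top to Eph receptors, with Unc50 last; columns are uremic against control, uremic against control with vitamin D, and control with vitamin D against control, and filled points have an adjusted p under 0.05. The 9 filled points left of 0 in the first column include 7 semaphorins, while Robo2 lies farthest to the right in the first and second columns.

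Class 3 semaphorins are secreted and bind neuropilins paired with plexins. Of 6 tested in uremic against control aortas, Sema3c, Sema3b and Sema3d fell, 0 rose, and Sema3a (adjusted p = 0.057), Sema3f and Sema3g were not called. Sema3c, which in mice is needed to divide the outflow tract of the heart, fell most. It measured 5.70, 5.00, 7.75, 6.59 and 4.27 FPKM in uremic rats (values here and below in order of rat number), 13.8, 6.76, 13.9 and 16.2 FPKM in control rats on vitamin D and 27.8, 20.7, 21.1, 17.0 and 21.3 FPKM in control rats. Every uremic rat lay below every control rat, and the lowest control rat on vitamin D, rat 37, lay inside the uremic range. The uremic mean was 5.86 FPKM against 21.6 FPKM in control rats (log2 -1.73, SE 0.16, adjusted p = 1.6e-05 by limma), and the difference from control rats on vitamin D was also called (log2 -0.96, SE 0.24, adjusted p = 0.022). That second call ended without uremic rat 28 or control rat 36, 38 or 39 on vitamin D, with an adjusted p of up to 0.073. Control rats on vitamin D did not overlap control rats, but the change was not called (log2 -0.77, SE 0.22, adjusted p = 0.12).

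The 250 bases before the Sema3c start are shown because the window holds a CArG box, the motif of serum response factor in contractile genes, and no other tested guidance gene with a promoter entry did. RefSeq (GRCr8, chr4:18699628-18699877, minus strand) gives it 5′ to 3′ with the CArG box in capitals, 33 to 24 bases before the start.
Sema3c: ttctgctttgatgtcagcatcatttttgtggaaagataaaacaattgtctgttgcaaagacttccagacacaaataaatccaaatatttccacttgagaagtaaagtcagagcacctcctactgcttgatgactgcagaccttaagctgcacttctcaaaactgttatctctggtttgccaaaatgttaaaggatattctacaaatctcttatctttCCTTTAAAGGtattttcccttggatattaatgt
This motif was found in 1.5% of 27457 rat promoters of the same length, both strands searched, and in 1 of the 31 tested members that have an entry. Of the 6 fallen members with an entry Sema3c was the most AT-rich: 35.2% of its window was G or C, and the median over the 6 was 58.8%. Contractile genes fell in the same libraries, as given above; the match is a description of letters, and its part in the fall was not tested.

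Sema3b is a secreted ligand of neuropilins. It measured 16.1, 13.4, 14.2, 11.9 and 16.8 FPKM in uremic rats, 28.2, 16.5, 29.2 and 34.8 FPKM in control rats on vitamin D and 34.9, 47.0, 40.3, 43.7 and 35.7 FPKM in control rats. The uremic and control ranges were far apart, and among control rats on vitamin D rat 37 came down into the uremic range. Sema3b fell by limma against control (log2 -1.42, SE 0.12, adjusted p = 1e-05) and against control with vitamin D (log2 -0.83, SE 0.20, adjusted p = 0.019). The second call ended without control rat 36 or 38 on vitamin D (adjusted p up to 0.063). Control rats on vitamin D did not overlap control rats, with means of 27.2 and 40.3 FPKM, but the change was not called (log2 -0.59, SE 0.19, adjusted p = 0.15 by limma).

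Its neighbour Sema3f, a ligand that prefers neuropilin 2, lies 78 kb away on chromosome 8 (115795105 to 115824684 against 115710329 to 115717175 for Sema3b, rn5) and was not called. Sema3f averaged 28.8 ± 7.61 FPKM in uremic rats (n = 5), 19.8 ± 3.88 FPKM in control rats on vitamin D (n = 4) and 27.6 ± 2.57 FPKM in control rats (SD, n = 5), with a change of log2 0.02, SE 0.17, adjusted p = 0.93 by limma for uremic against control. The ratio of Sema3b to Sema3f was 0.419 to 0.621 in uremic rats, 0.790 to 2.03 in control rats on vitamin D and 1.13 to 1.68 in control rats. Within each uremic rat Sema3f was thus the more abundant of the pair, and within each control rat Sema3b was.

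**Figure D2:**
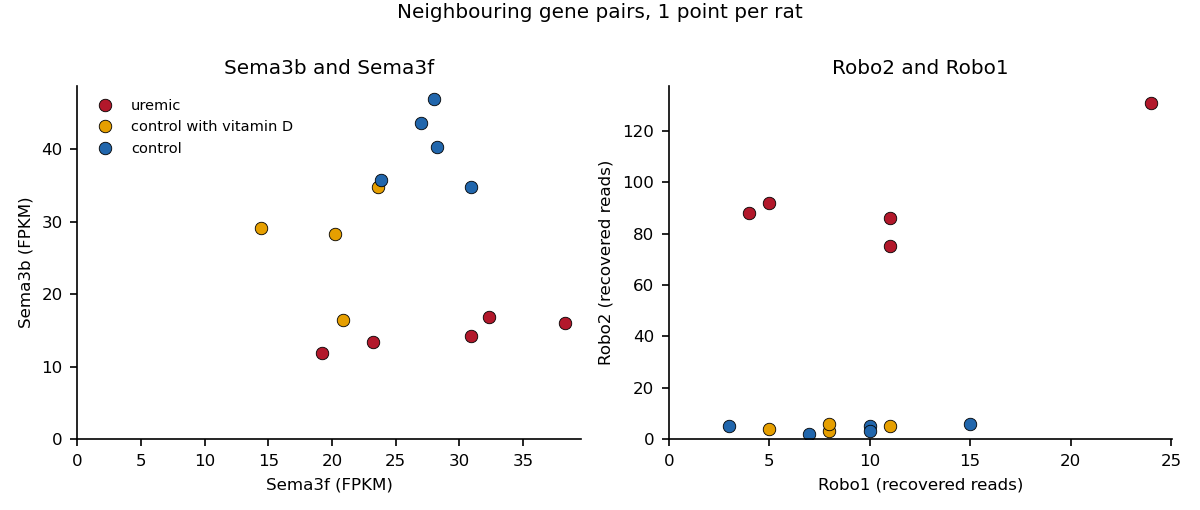
Left, FPKM of Sema3b against FPKM of Sema3f; right, recovered reads of Robo2 against those of Robo1; 1 point per rat, coloured by group. The uremic rats lie below the control rats in Sema3b at like levels of Sema3f, and above all other rats in Robo2, with 75 to 131 reads.

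Sema3d, a ligand that helps to pattern veins in mouse embryos, measured 6.34, 10.9, 9.69, 9.32 and 12.6 FPKM in uremic rats, 12.4, 11.8, 18.9 and 25.2 FPKM in control rats on vitamin D and 19.6, 21.0, 14.7, 12.8 and 17.9 FPKM in control rats. It fell in uremic against control aortas without overlap (log2 -0.77, SE 0.18, adjusted p = 0.0087 by limma; 12.6 FPKM in the highest uremic and 12.8 FPKM in the lowest control rat). Against control with vitamin D it was not called (log2 -0.71, SE 0.24, adjusted p = 0.07). Sema3c, Sema3e, Sema3a and Sema3d all lie on chromosome 4 between 14293369 and 19359164 (rn5). Sema3e was at 0 in 12 of 14 libraries, and Sema3a averaged 0.808 ± 0.358 FPKM in uremic rats (n = 5), 0.965 ± 0.330 FPKM in control rats on vitamin D (n = 4) and 1.65 ± 0.466 FPKM in control rats (SD, n = 5).

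Class 5 semaphorins span the membrane and carry thrombospondin repeats, and both rat members, Sema5a and Sema5b, fell in uremic against control aortas. Sema5a measured 7.20, 8.63, 8.34, 5.58 and 6.53 FPKM in uremic rats, 22.4, 16.1, 23.5 and 28.0 FPKM in control rats on vitamin D and 36.4, 30.2, 33.9, 28.5 and 24.7 FPKM in control rats. The uremic rats overlapped neither of the other groups: the highest was at 8.63 FPKM and the lowest of the other 9 rats at 16.1 FPKM. On the log2 scale Sema5a had the largest fall among the tested members in both uremic comparisons. It was 4.24-fold lower in the mean than in control rats (log2 -1.94, SE 0.14, adjusted p = 2.4e-06 by limma) and 3.10-fold lower than in control rats on vitamin D (log2 -1.50, SE 0.18, adjusted p = 0.00069); both calls held without any single rat. Among the 60 members it ranked 17th by level in uremic rats, 4th in control rats on vitamin D and 3rd in control rats. The difference between control with vitamin D and control was not called (log2 -0.45, SE 0.16, adjusted p = 0.18). Sema5a and Sema3b had no matched promoter entry.

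Sema5b had less transcript, with 1.61, 1.90, 1.63, 1.16 and 1.49 FPKM in uremic rats, 3.41, 1.83, 3.12 and 2.90 FPKM in control rats on vitamin D and 3.58, 3.31, 5.21, 5.69 and 2.22 FPKM in control rats. Its values rest on 15 to 29 reads in uremic and 21 to 44 reads in control libraries. Uremic and control rats did not overlap and the fall was called (log2 -0.92, SE 0.20, adjusted p = 0.0059 by limma); against control with vitamin D it was not (log2 -0.56, SE 0.18, adjusted p = 0.06).

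Class 6 semaphorins are transmembrane ligands of A plexins. Sema6d and Sema6c fell in uremic against control rats and Sema6b was not called. Sema6d had a mean of 3.98 ± 0.498 FPKM in uremic rats and 7.80 ± 2.40 FPKM in control rats (SD, n = 5 each; log2 -0.78, SE 0.19, adjusted p = 0.013 by limma), with 1 control rat, rat 44 at 4.28 FPKM, inside the uremic range. Sema6c had a mean of 1.63 ± 0.524 FPKM in uremic rats and 3.79 ± 1.55 FPKM in control rats (SD, n = 5 each; log2 -0.82, SE 0.23, adjusted p = 0.025 by limma). The Sema6c call ended without control rat 41 or 42 or uremic rat 20 or 28 (adjusted p up to 0.063). Both were near the uremic level in control rats on vitamin D too, at 4.59 ± 1.01 FPKM for Sema6d and 1.92 ± 0.71 FPKM for Sema6c (SD, n = 4), and neither was called in the other comparisons.

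Class 4 semaphorins, transmembrane ligands of B plexins that immune cells also use, and the GPI-anchored Sema7a, which acts through integrins and plexin C1, were not called in any comparison. Sema4c, the most abundant of class 4, averaged 8.20 ± 1.58 FPKM in uremic rats (n = 5), 7.09 ± 2.39 FPKM in control rats on vitamin D (n = 4) and 9.51 ± 1.56 FPKM in control rats (SD, n = 5). Sema7a averaged 13.3 ± 4.18 FPKM in uremic rats (n = 5), 12.4 ± 5.70 FPKM in control rats on vitamin D (n = 4) and 11.7 ± 0.987 FPKM in control rats (SD, n = 5). The spread of Sema7a was wide in both groups given vitamin D and narrow in control rats. Over all 19 semaphorins the summed level was 104 to 129 FPKM in uremic rats, 116 to 187 FPKM in control rats on vitamin D and 180 to 212 FPKM in control rats. Of 16 tested semaphorins limma called 7 lower and 0 higher in uremic against control rats, and 5 had a positive, uncalled change. In control with vitamin D against control 14 of 16 had a negative, uncalled change.

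**Figure D3:**
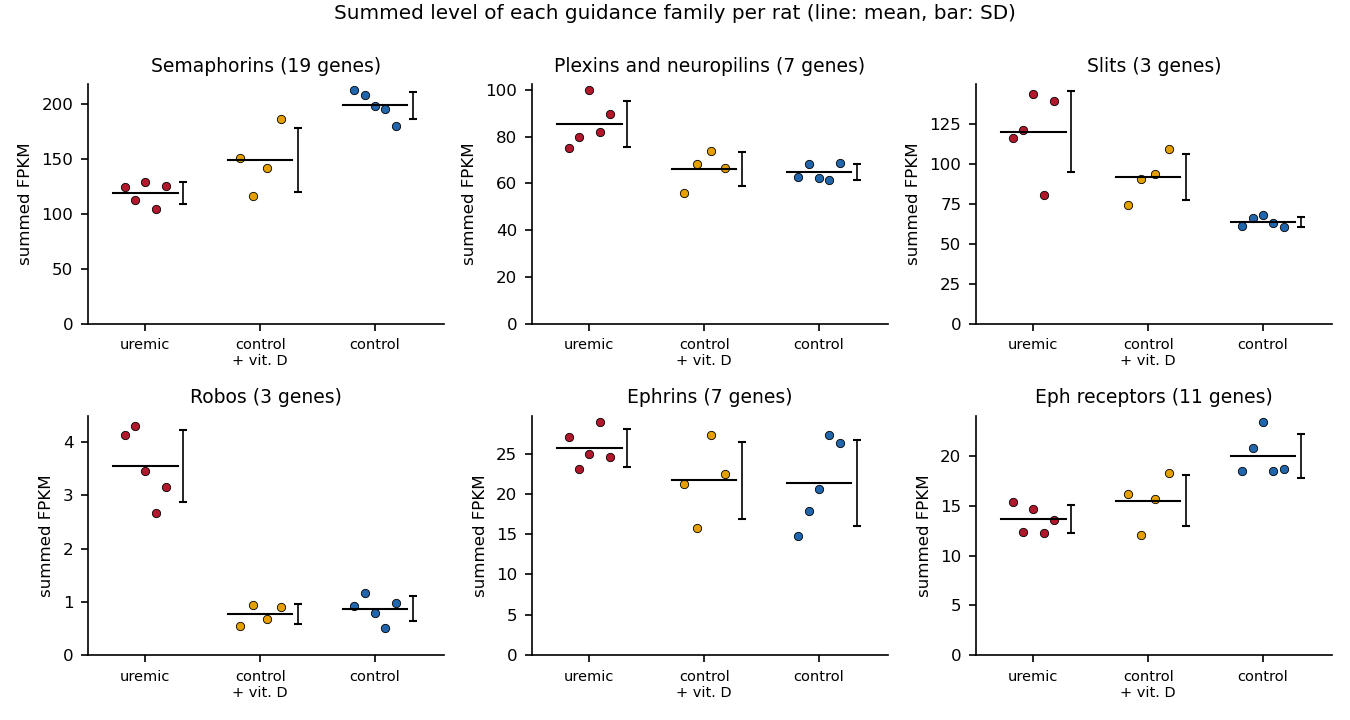
Summed FPKM of each guidance family per rat in uremic, control with vitamin D and control aortas; points are rats, lines are means and bars are SD. Semaphorins summed to 104 to 129 FPKM in uremic against 180 to 212 FPKM in control rats, and slits to 80.2 to 144 FPKM in uremic against 60.5 to 67.7 FPKM in control rats.

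Among the semaphorin receptors in the deposited table, 0 were called lower. It holds 5 of the 10 plexin names searched (A2, A3, B2, B3 and D1), and plexin C1 is not among them. Of 6 plexins and neuropilins tested in uremic against control aortas, Plxna2, Plxnb2 and Nrp2 rose and 0 fell. Plexin A2, a receptor for class 3 and class 6 semaphorins, measured 2.84, 4.08, 2.44, 3.79 and 3.10 FPKM in uremic rats, 1.36, 1.98, 2.23 and 1.40 FPKM in control rats on vitamin D and 1.16, 1.29, 0.988, 1.297 and 1.63 FPKM in control rats. The uremic rats were above all rats of the other groups. It rose 2.55-fold against control (log2 0.89, SE 0.16, adjusted p = 0.0016 by limma) and 1.86-fold against control with vitamin D (log2 0.63, SE 0.18, adjusted p = 0.04). The second call ended without any one of 7 of the 9 rats (all except uremic rat 20 and control rat 37 on vitamin D), with an adjusted p of up to 0.11; it also ended with no filter (adjusted p = 0.051), equal totals (0.087) and quantile scaling (0.1).

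Plexin B2, a receptor for class 4 semaphorins, was the most abundant receptor among the members. It measured 36.6, 41.2, 38.3, 26.6 and 42.1 FPKM in uremic rats, 21.5, 27.6, 22.4 and 28.9 FPKM in control rats on vitamin D and 24.6, 23.3, 24.3, 22.7 and 20.6 FPKM in control rats. Uremic rat 27 stood lowest of its group, above the control rats but among the control rats on vitamin D. Plxnb2 rose against control (log2 0.64, SE 0.13, adjusted p = 0.0035 by limma) and against control with vitamin D (log2 0.54, SE 0.16, adjusted p = 0.043), the second call ending without any one of 7 of the 9 rats (all except uremic rat 27 and control rat 39 on vitamin D; adjusted p up to 0.13). It also ended with no filter (adjusted p = 0.055) and with equal totals (0.087).

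Neuropilin 2, a coreceptor for Sema3f and for lymphatic growth factors, had a mean of 16.0 ± 4.39 FPKM in uremic rats and 9.66 ± 0.888 FPKM in control rats (SD, n = 5 each; log2 0.63, SE 0.17, adjusted p = 0.018 by limma); its groups overlapped. Nrp2 averaged 11.1 ± 3.69 FPKM in control rats on vitamin D (SD, n = 4). The uremic difference from them was not called (log2 0.51, SE 0.25, adjusted p = 0.21 by limma). Neuropilin 1, a coreceptor for Sema3a and VEGF, averaged 18.5 ± 5.47 FPKM in uremic rats (n = 5), 16.4 ± 4.94 FPKM in control rats on vitamin D (n = 4) and 17.3 ± 3.52 FPKM in control rats (SD, n = 5) and was not called. Plxnd1, the endothelial receptor of Sema3e, and Plxna3 were not called either, at log2 -0.28 and -0.37. The summed level of plexins and neuropilins was 75.3 to 100.2 FPKM in uremic rats, 56.0 to 73.8 FPKM in control rats on vitamin D and 61.7 to 68.8 FPKM in control rats.

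Slit3 was the most abundant guidance gene in all 3 groups, and in uremic aortas it rose together with Robo2, a slit receptor. Slit3, a secreted ligand, measured 113, 117, 139, 76.6 and 136 FPKM in uremic rats, 71.7, 88.1, 91.0 and 106 FPKM in control rats on vitamin D and 58.3, 62.5, 64.9, 61.4 and 58.2 FPKM in control rats. The control rats lay close together and below every other rat; uremic rat 27 stood apart at the low end of its group, among the control rats on vitamin D. Slit3 rose 1.91-fold against control (log2 0.89, SE 0.15, adjusted p = 0.001 by limma). Against control with vitamin D it was not called (log2 0.36, SE 0.18, adjusted p = 0.22), except without uremic rat 27 (adjusted p = 0.032 by limma) and with array weights (adjusted p = 0.039). Control rats on vitamin D stood above all control rats without a call (log2 0.53, SE 0.12, adjusted p = 0.085), and array weights gave this change a call.

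Robo2 was near the limit of detection outside uremia. It measured 3.77, 3.98, 2.74, 1.99 and 2.57 FPKM in uremic rats, 0.168, 0.161, 0.138 and 0.265 FPKM in control rats on vitamin D and 0.201, 0.210, 0.107, 0.246 and 0.121 FPKM in control rats. In recovered reads these were 92, 88, 75, 131 and 86 in uremic rats, 4, 3, 5 and 6 in control rats on vitamin D and 5, 6, 2, 5 and 3 in control rats. Every uremic library was above every library of the other groups. The uremic mean was 17.0-fold that of control rats (log2 1.74, SE 0.18, adjusted p = 2.7e-05 by limma) and 16.4-fold that of control rats on vitamin D (log2 1.74, SE 0.19, adjusted p = 0.0005). Robo2 passed the filter only through its uremic libraries, since the other 9 lay at 0.107 to 0.265 FPKM, so a gene tested in this way had to differ and its calls are a description. On the log2(FPKM + 1) scale a low gene's change is understated: limma voom on the recovered reads gave 3.91 against control and 3.92 against control with vitamin D. The authors' deposited table gives Robo2 a q of 1 in both comparisons. Plxna2 and Epha2 have the same q, and so do Ntn5 and Unc5d, listed at 0 in all libraries. That q can therefore stand for a gene that was not tested, and it is not evidence against these calls.

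Robo1, which lies 924 kb from Robo2 on chromosome 11 (12888782 to 13808774 and 14733230 to 15253393, rn5), was under the filter, with 5, 4, 11, 24 and 11 recovered reads in uremic rats, 5, 8, 11 and 8 in control rats on vitamin D and 10, 15, 7, 3 and 10 in control rats. The ratio of Robo2 to Robo1 FPKM was 3.02 to 12.2 in uremic rats, 0.208 to 0.443 in control rats on vitamin D and 0.158 to 0.923 in control rats. Robo3, a receptor of commissural axons, was above 0 in 2 libraries. Slit2, at 3.88 ± 0.715 FPKM in uremic rats (n = 5), 2.50 ± 0.452 FPKM in control rats on vitamin D (n = 4) and 2.57 ± 0.752 FPKM in control rats (SD, n = 5), was not called (log2 0.46, SE 0.18, adjusted p = 0.081 by limma for uremic against control), and Slit1 stayed at or below 0.108 FPKM. Markers of neurons, which use Robo2, summed to 15.0 to 38.3 FPKM in uremic rats, 10.7 to 19.6 FPKM in control rats on vitamin D and 9.89 to 29.9 FPKM in control rats; their part in the Robo2 value was not tested.

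The promoters of this ligand and receptor are shown as the pair that rose. RefSeq (GRCr8) places the 250 bases before the Slit3 start at chr10:20075679-20075928, plus strand, and those of Robo2 at chr11:26526413-26526662, minus strand. Capitals mark the GC box GGGCGG or its reverse complement CCGCCC, and in Slit3 also CCAAT; each is 5′ to 3′.
Slit3: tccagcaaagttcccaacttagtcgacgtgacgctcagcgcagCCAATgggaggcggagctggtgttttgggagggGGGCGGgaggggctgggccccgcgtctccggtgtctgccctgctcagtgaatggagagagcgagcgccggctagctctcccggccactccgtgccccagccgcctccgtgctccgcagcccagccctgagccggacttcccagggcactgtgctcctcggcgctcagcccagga
Robo2: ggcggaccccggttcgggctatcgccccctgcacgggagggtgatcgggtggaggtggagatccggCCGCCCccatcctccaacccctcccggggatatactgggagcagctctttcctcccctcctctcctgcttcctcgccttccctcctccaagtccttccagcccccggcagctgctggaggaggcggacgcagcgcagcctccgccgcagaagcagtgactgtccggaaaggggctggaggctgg
Of the 8 motifs searched on both strands, the GC box was found in 19 of the 31 tested members with an entry (61.3%) and in 32.4% of 27457 rat promoters. It was in 6 of 7 risen, 1 of 6 fallen and 12 of 16 uncalled members with an entry (by the call in uremic against control). CCAAT was in 9 of the 31 (29.0%) and in 34.3% of all promoters. G and C content differed along with the GC box. Its median was 69.2% in the 7 risen, 65.4% in the 16 uncalled and 58.8% in the 6 fallen members. Over all promoters it was 52.0%. TATAAA (13.1% of all promoters) and the AP-1 motif TGANTCA (6.36%) were in none of the 31 windows. GGAATG, bound by TEAD factors, was in 1 (11.8% of all), TGTGGT, bound by RUNX factors, in 6 (14.1% of all), and AGGTCA, bound by nuclear receptors, in 1 (13.7% of all).

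**Figure D4:**
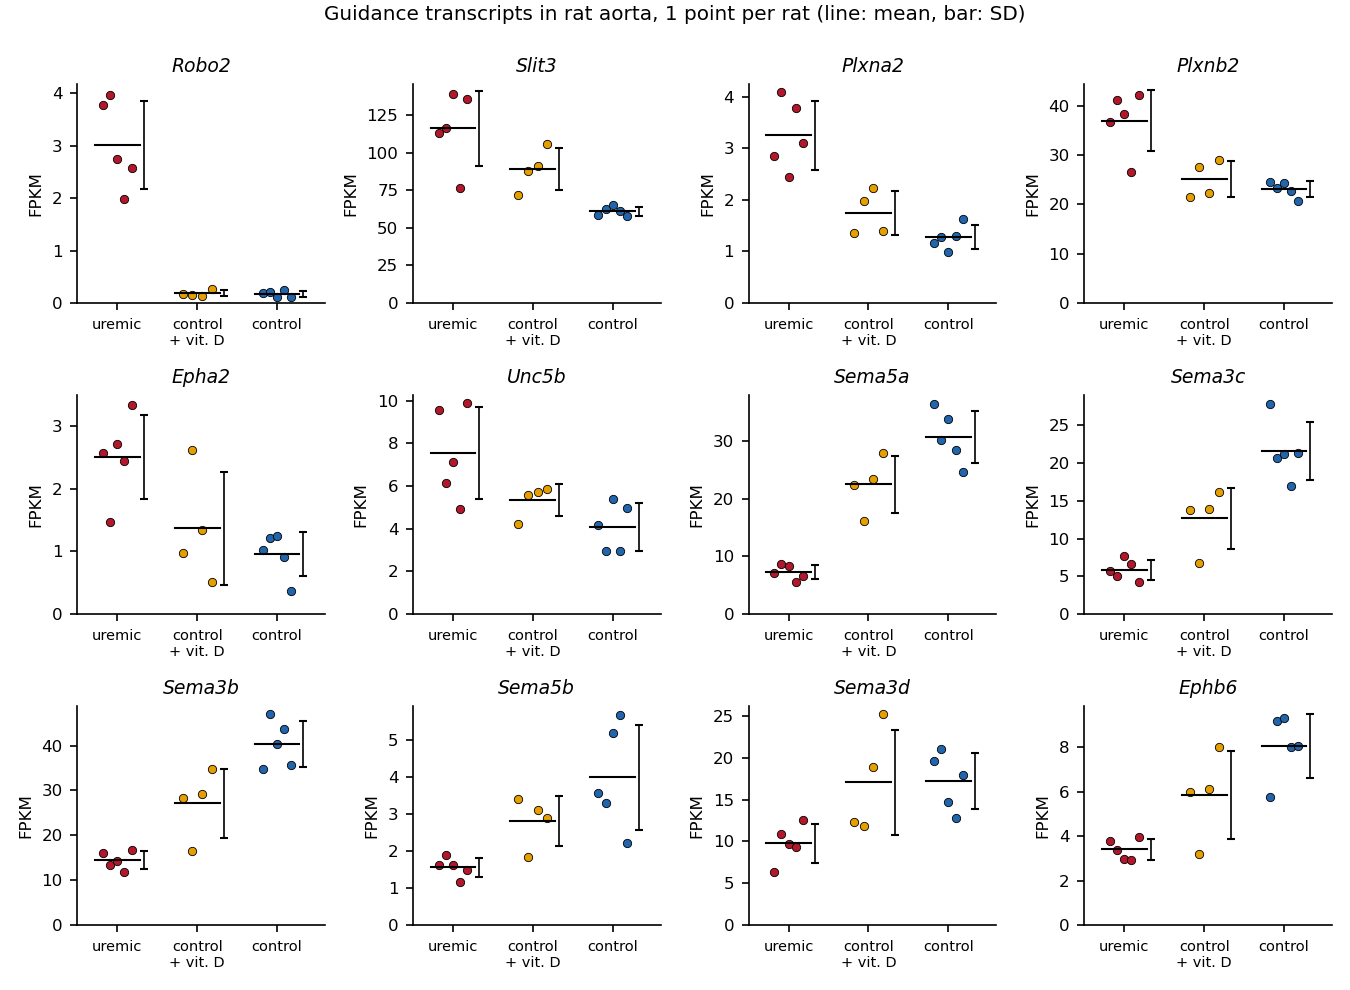
FPKM of 12 guidance genes in each rat, with uremic, control with vitamin D and control aortas from left to right; lines are means and bars are SD. Read row by row, the first 6 genes rose and the last 6 fell in uremic against control rats. Robo2 was 1.99 to 3.98 FPKM in uremic rats and at most 0.265 FPKM in the others.

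Among the netrins and their receptors Unc5b was called with all rats included, in uremic against control. UNC5B, a netrin receptor of sprouting endothelium, had a mean of 7.53 ± 2.16 FPKM in uremic rats and 4.09 ± 1.12 FPKM in control rats (SD, n = 5 each; log2 0.74, SE 0.20, adjusted p = 0.022 by limma). Its groups overlapped, and the call ended without control rat 42 or 44 or uremic rat 9 or 28 (adjusted p up to 0.059). Unc5b averaged 5.35 ± 0.757 FPKM in control rats on vitamin D (SD, n = 4). The uremic difference from them was not called (log2 0.40, SE 0.20, adjusted p = 0.21 by limma). Ntn1, the main netrin here, averaged 14.2 ± 3.20 FPKM in uremic rats (n = 5), 10.7 ± 4.53 FPKM in control rats on vitamin D (n = 4) and 9.86 ± 3.32 FPKM in control rats (SD, n = 5); it was not called (log2 0.51, SE 0.21, adjusted p = 0.095 by limma for uremic against control), except without control rat 42 (adjusted p = 0.03). Ntn4, a netrin of basement membranes, averaged 3.90, 4.17 and 4.11 FPKM in uremic, control with vitamin D and control rats. Unc5a, a netrin receptor of neurons, measured 0.816, 0.450, 0.727, 3.18 and 1.09 FPKM in uremic rats, 2.50, 2.50, 10.4 and 1.47 FPKM in control rats on vitamin D and 0.798, 0.812, 0.889, 1.80 and 2.67 FPKM in control rats. In each group 1 rat stood above the rest, rats 27, 38 and 46. The same rats had the highest summed brown adipocyte markers of their groups, 600 FPKM in rat 27, 1678 FPKM in rat 38 and 823 FPKM in rat 46; the part of fat tissue in Unc5a was not tested.

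Ephrins, the membrane-bound ligands of Eph receptors, gave 1 call. Efna1, which binds EphA2, measured 7.07, 8.90, 6.97, 11.7 and 8.10 FPKM in uremic rats, 4.91, 2.65, 4.42 and 4.90 FPKM in control rats on vitamin D and 5.68, 7.97, 5.61, 9.10 and 8.18 FPKM in control rats. The control rats on vitamin D were below every other rat. Efna1 rose in uremic rats against control with vitamin D, 2.03-fold (log2 0.88, SE 0.19, adjusted p = 0.014 by limma), a call that held without any single rat, and was not called against control (log2 0.20, SE 0.17, adjusted p = 0.44). For control with vitamin D against control the change was log2 -0.68, SE 0.20, adjusted p = 0.13, not called. Efnb1, on the X chromosome and the ephrin with the highest mean over all libraries, averaged 7.83 ± 0.975 FPKM in uremic rats (n = 5), 9.13 ± 1.83 FPKM in control rats on vitamin D (n = 4) and 6.84 ± 2.22 FPKM in control rats (SD, n = 5). Efnb2, an ephrin of arterial endothelium, averaged 7.73, 5.77 and 6.22 FPKM in uremic, control with vitamin D and control rats; neither Efnb1 nor Efnb2 was called in any comparison.

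Of 4 Eph receptors tested in uremic against control aortas, Epha2 rose, Ephb6 and Epha4 fell and Ephb3 was not called. Epha2, a tyrosine kinase, measured 2.58, 1.47, 2.72, 2.44 and 3.34 FPKM in uremic rats, 0.977, 2.63, 1.35 and 0.515 FPKM in control rats on vitamin D and 1.03, 1.22, 1.25, 0.918 and 0.375 FPKM in control rats. Uremic rats were above all control rats, and control rat 37 on vitamin D was inside the uremic range. The rise against control was called (log2 0.84, SE 0.20, adjusted p = 0.0087 by limma), on 14 to 69 reads in uremic and 4 to 15 reads in control libraries; against control with vitamin D it was not (log2 0.62, SE 0.26, adjusted p = 0.14).

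Ephb6, an Eph receptor whose kinase domain is inactive, was the most abundant of the 11 Eph receptors in the deposited table, which has no row for Ephb4. It measured 3.79, 3.38, 2.97, 2.91 and 3.95 FPKM in uremic rats, 6.00, 3.19, 6.13 and 7.98 FPKM in control rats on vitamin D and 5.74, 9.16, 9.32, 8.02 and 8.07 FPKM in control rats. Uremic and control rats did not overlap, and control rat 37 on vitamin D lay inside the uremic range. It fell against control (log2 -1.03, SE 0.15, adjusted p = 0.00037 by limma) and was not called against control with vitamin D (log2 -0.59, SE 0.21, adjusted p = 0.086). Without control rat 37 on vitamin D that difference was called (log2 -0.81, adjusted p = 0.012 by limma), as it was with equal totals (adjusted p = 0.038). Epha4, which binds ephrins of both classes, had a mean of 3.17 ± 0.896 FPKM in uremic rats and 5.77 ± 1.37 FPKM in control rats (SD, n = 5 each; log2 -0.70, SE 0.18, adjusted p = 0.017 by limma). Against control with vitamin D it was not called (log2 -0.54, SE 0.18, adjusted p = 0.067), except without uremic rat 17, with equal totals, quantile scaling or array weights, and by limma voom (adjusted p of 0.023 to 0.049). The ratio of Epha2 to Epha4 was 0.316 to 1.32 in uremic rats, 0.102 to 0.629 in control rats on vitamin D and 0.0835 to 0.294 in control rats.

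The uremic rats were not alike. Among the 16 members called against control, rat 27 had the lowest uremic value in 8, including 4 of the 7 that rose (Slit3, Plxnb2, Unc5b and Robo2), and rats 17 and 28 had the highest value in 6 each. Rat 27 had the deepest library, carries 2 index sequences in its label, and had the highest white adipocyte markers of its group (7328 FPKM in rat 27, 1581 to 3048 FPKM in the other uremic rats). Among control rats on vitamin D, rat 37, the shallowest library, was alone inside the uremic range for Sema3c, Sema3b, Sema5b, Ephb6, Epha2 and Epha4. These were named after their values were seen. It also lay inside that range for Slit3, Plxnb2, Nrp2, Unc5b, Sema3d and Sema6c, where it was not the only rat of its group. Its proliferation markers summed to 14.4 FPKM, inside the uremic range of 12.2 to 29.4 FPKM, with 1.42 to 3.32 FPKM in the other control rats on vitamin D. Its contractile markers, at 16570 FPKM, were the lowest of its group, and their part in these values was not tested.

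Of 70 tested members of 5 lists of signalling genes, 7 were higher and 8 lower in uremic against control rats (21.4%, near the 21.9% of all tested genes), with a median log2 change of 0.00, as over all tested genes (0.00). The genes named here all passed limma's adjusted p under 0.05. Ephrin signalling had 3 of 20 higher: Rgs3 (log2 1.02), a regulator of G protein signalling with a form that binds ephrin-B, Rasa1 (log2 1.24), a GTPase activator for Ras, and Adam10 (log2 0.50), a protease that cleaves ephrins. Semaphorin signalling had Farp1, Farp2 and Rap1b higher and Rnd2 and Mical3 lower of 22. Farp1 and Farp2, exchange factors linked to A plexins, changed by log2 1.00 and 0.73, and Rnd2, a small GTPase that binds plexins, by log2 -0.90. Slit signalling had 3 of 13 lower: Srgap3 (log2 -1.12), a GTPase activator that binds robos, Pak1 (log2 -0.57) and Enah (log2 -0.55), which acts on actin filaments. Netrin signalling had the kinases Src (log2 -0.87) and Ptk2 (log2 -0.38) lower of 10. Of 9 further guidance genes, Flrt2, a ligand of UNC5 proteins, rose (log2 0.81) and Cntn2, a contactin of axons, fell (log2 -1.32).

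Against control with vitamin D, 4 of 67 of these signalling genes rose (Rgs3, Rasa1, Farp1 and Fes) and 2 fell (Ptk2 and Maged1), which is 8.96% against 13.2% of all tested genes. In control with vitamin D against control 0 of 70 were called.

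By the authors' deposited table, a q under 0.05 is given to 14 of the 60 members (23.3%) and to 11.2% of all 17019 genes for uremic against control, and 12 of them are among the 16 called here. Of the calls without such a q, Sema6c has a q of 0.586. Robo2, Plxna2 and Epha2 carry the q given also to genes at 0 in all libraries, which can stand for no test. The authors' table also gives a q under 0.05 to Sema6b (0.033) and Slit2 (0.022), both higher in uremic rats and not called here. Both have such a q against control with vitamin D too. For uremic against control with vitamin D the table has 13 (21.7%, with 9.58% of all genes), of which 5 are among the 7 called here, and for control with vitamin D against control it has 7 (11.7%, with 5.2% of all genes).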

How the data were processed

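Polyadenylated RNA of dissected aortas (renal arteries to heart) was sequenced, 1 library per rat, per the labels' protocols. Per the submitters' processing notes, the authors' tools were TopHat2 2.0.10, Cuffdiff, Cufflinks 2.1.1 and cutadapt 1.3, on build rn5; settings are not given in the sources used here. The deposited table names no unit; FPKM, the unit of Cufflinks, was assumed for the values the authors deposited, and it holds the authors' q-values per pair of groups. The values of a gene in a library move in steps of 1 read: whole reads were recovered, within 0.1 read, for 10928 of 11294 genes above 0 in at least 8 libraries (96.8%), and for 0 of 500 shuffled genes. Reads from PCR are not independent molecules, so no counting interval is given; errors are those between rats.

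Each comparison was fitted alone, on genes that reached 1 FPKM in 4 or more of its libraries. The test was limma 3.58.1 in R 4.3.3 (lmFit, then eBayes with trend) on log2(FPKM + 1), 2-sided. A gene is called where its p, adjusted by Benjamini-Hochberg over every gene tested, is under 0.05; the step was tested on simulated data. Changes are log2 differences of the first group minus the second, SE and adjusted p are limma's, and folds are ratios of mean FPKM. The members and all lists were chosen with earlier results of these data known. Full values are given for called members whose groups do not overlap, at most 10 per comparison by size of change, and for the member with the highest mean of a family; other called members are given by means; Unc5a and the gene pairs were chosen after their values were seen. Alternatives were pseudocounts 0.1 and 0.01, other filters, equal-total, median-ratio and quantile scaling, 1 fit for 3 groups, array weights, a robust fit, an exact rank-sum test, leaving out each rat, and, added after the data were seen, limma voom on recovered reads. Promoters are RefSeq's (GRCr8), matched by symbol for 47 of 60 members; Python 3.11.15 with pandas 2.3.3 and matplotlib 3.10.9 was used. The read mapping of near-identical copies was not checked.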

Additional observations from a re-analysis of the deposited data

Results flagged for a closer look

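In 6 of 117 combinations of a tested member and a group of rats, 1 rat was farther from the others than Dixon's 95% criterion allows; chance alone marks about 1 in 20. Unc5a was marked in both groups given vitamin D: uremic rat 27 had 3.18 FPKM with the next uremic rat at 1.09 FPKM, and control rat 38 on vitamin D had 10.4 FPKM with the next at 2.50 FPKM. Sema3g had 9.46 FPKM in uremic rat 27, with the next at 6.02 FPKM. Unc50 had 15.6 FPKM in uremic rat 9, with the next at 13.1 FPKM. Sema4b had 3.47 FPKM in control rat 38 on vitamin D, with the next at 2.19 FPKM, and Unc5b had 4.23 FPKM in control rat 36 on vitamin D, below the next at 5.59 FPKM.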

How the results depend on the processing

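In uremic against control, the 16 calls (7 higher, 9 lower) became 10 (4 higher) with a filter of 5 FPKM, which tests fewer genes, and ran from 14 to 17 without 1 rat (6 to 7 higher, 8 to 10 lower). The exact rank-sum test called 0, as it did over all genes, in this comparison and in uremic against control with vitamin D. With groups this small, its lowest possible p goes only to genes whose groups do not overlap. These were 15.7% and 12.7% of all tested genes, too few for that p to pass the adjustment. This test therefore could not make a call here, and its 0 is not evidence against the limma calls. In uremic against control with vitamin D the 7 calls (4 higher, 3 lower) became 13 (7 higher, 6 lower) with array weights; 2 were higher with no filter or a filter of 5 FPKM, 2 higher and 7 lower with equal totals, 5 lower with quantile scaling and 5 lower with limma voom; the cause was not tested. Without 1 rat there were 3 to 10 calls (2 to 5 higher, 1 to 6 lower). In control with vitamin D against control, array weights made 1 call (1 higher, Slit3) and 0 to 1 calls were made without 1 rat (0 higher, 0 to 1 lower; the 1 without control rat 39 on vitamin D); over all genes array weights called 429 against 13, and 3 with no filter.

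Uncalled changes near 0 reversed. In uremic against control Nrp1 went to -0.04 with equal totals and ran from -0.06 to 0.18 without 1 rat, negative without uremic rat 27 (-0.06), uremic rat 20 (-0.02) or control rat 44 (-0.00). Against control with vitamin D, Sema7a went to -0.05 without control rat 37 and -0.02 without control rat 38 on vitamin D (range to 0.37). In control with vitamin D against control, Nrp1 went to 0.01 without control rat 46 and 0.02 without rat 39 (range from -0.27). Ntn1 went to -0.08 with array weights, -0.07 without rat 41 or 38 and -0.11 without rat 39 (range to 0.29). Sema7a went to 0.01, 0.16 and 0.13 without rats 43, 37 and 38 (range from -0.26). No paired analysis was possible because no rat number is shared between groups. Depth limits low members most: Robo1 rests on 3 to 24 reads per library.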
